A study of Mus musculus with 2 samples.

Results

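CD antigens are cell surface molecules named by the cluster of differentiation scheme, and most were first defined by antibodies against leukocytes. The genes described here are those whose current mouse symbol is Cd followed by a number, with at most 1 letter and 1 further digit, and each was read by 1 probe. The platform held 81 such genes, and 61 of them had a value on both arrays, out of 13506 named genes that did. Colon26 is a mouse colon carcinoma line, and its cells were placed under the lining of the rectum of Balb/c mice. Each of 2 two-colour arrays set RNA of liver metastases, labelled with Cy3, against RNA of primary tumours, labelled with Cy5, and the 2 arrays came from tumours and metastases grown and harvested independently. The labels give no age, sex or treatment of the mice, and all tumours came from this 1 line.

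The deposited value of a gene is a log ratio of the 2 tissues, taken as log2. Its numerator is not stated, so the positive and the negative side are not assigned to the metastases or the primary tumours. A tumour holds cancer cells, blood vessels and immune cells, and fewer cells of a type and less RNA per cell cannot be told apart in such a ratio. The table holds no level for either tissue, so whether a lineage marker was present at all, and whether the cancer cells or the host's cells carried an antigen, could not be checked. Both arrays had the same dye orientation, and a dye bias of a probe cannot be told apart from its ratio.

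CD antigens mark lineages because each blood cell type carries its own set of receptors. T cells carry the CD3 complex with the coreceptors CD4 or CD8, B cells carry CD79 and CD22, and myeloid cells carry receptors for microbial products, cell debris and sialic acid. Other CD antigens, among them many of the tetraspanins, are found on cells of many kinds.

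The 61 genes had no common side. Limma's moderated test called 4 of them at an adjusted p of 0.05 or less, beside 2.9% of all genes. Cd300c and Cd83 were positive, beside 2.12% of all genes called on that side, and Cd14 and Cd248 were negative, beside 0.777%. Of the 61, 19 genes were positive on both arrays, 17 were negative on both and 25 had mixed signs, and their median was 0.02, against -0.02 over all genes. The same sign on both arrays was seen in 59.0% of these genes and in 72.2% of all genes. An absolute log ratio of at least 0.5 on both arrays was reached by 11 of the 61 genes, beside 12.4% of all genes. Of these 11, 8 were positive and 3 negative, beside 7.91% and 4.51% of all genes. At an unadjusted p of 0.05 or less there were 20 of the 61 genes, 32.8%, beside 27.5% of all genes. Only Cd37 was at least 1 log2 unit from 0 on both arrays, a distance that 2.27% of all genes reached. After the arrays were scaled to the same spread, 2 of the 61 did.

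**Figure D1:**
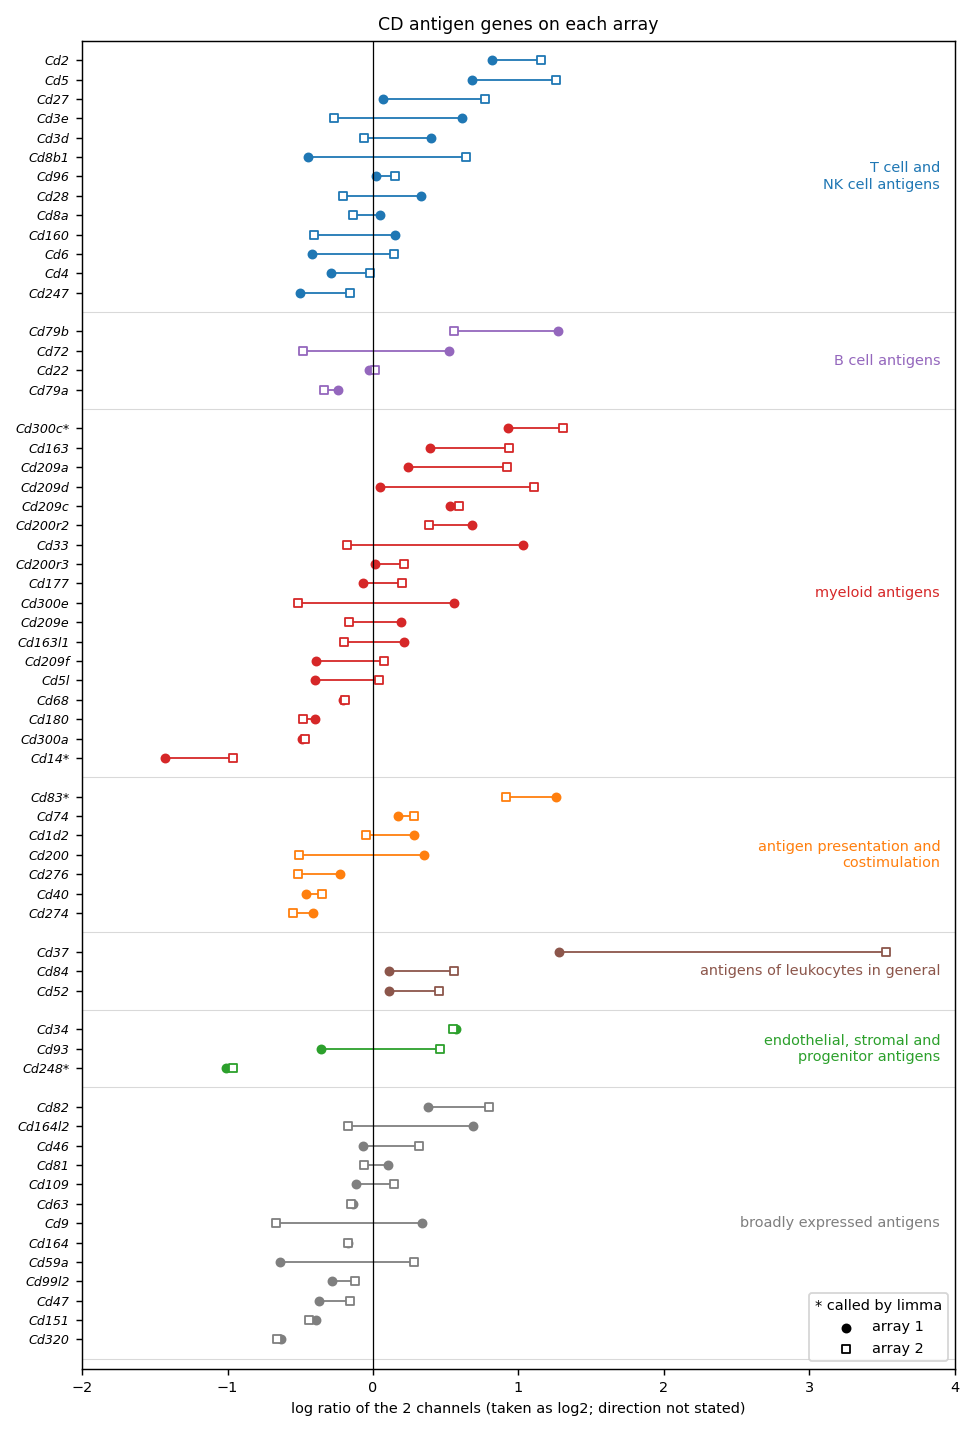
Log ratio (taken as log2) of each of the 61 CD antigen genes, with array 1 as a filled circle, array 2 as an open square and a line between them, grouped by role and ordered by mean. Cd37 lies farthest to the right at 1.28 and 3.53, Cd14 farthest to the left at -1.43 and -0.96, and the lines of 25 genes cross 0.

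The widest ratio belonged to an antigen of leukocytes in general. Cd37, a tetraspanin of B cells and other leukocytes, had a log ratio of 1.28 on array 1 and 3.53 on array 2. Both values were positive and far apart: the mean of 2.40 ± 1.59 (SD, n = 2) ranked 10 among the 13506 genes, and the gap between its arrays ranked 7. Its 95% interval in limma ran from 1.07 to 3.74, and at an adjusted p of 0.0801 Cd37 was not called. Cd84, a receptor of the SLAM family that binds itself on neighbouring leukocytes, had 0.11 and 0.55. Cd52, a short glycoprotein of lymphocytes and monocytes, had 0.11 and 0.46. All 3 measured genes of this role were thus positive on both arrays, as were 33.9% of all genes, with the larger value on array 2. Limma called 0 of the 3, while 1 had an unadjusted p of 0.05 or less, beside 27.5% of all genes.

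The 250 bases upstream of the annotated start are shown for 4 genes, to set the start regions of lineage antigens beside that of a broadly expressed one. Cd37, Cd300c and Cd5 have the widest ratios on their weaker array among the measured genes that the RefSeq promoter table (GRCm38.p6) lists, and Cd82 is the broadly expressed gene with the widest mean among those with a GC box. Capitals mark the letters GAGGAA or TTCCTC, an ETS core with a PU.1 flank, and GGGCGG or CCGCCC, the GC box bound by Sp1. The core is bound by ETS factors such as PU.1. ETS cores with other flanks were not searched for and are not marked. Each sequence runs 5′ to 3′ on the minus strand, as all 4 genes do.
Cd37, chr7:45238840-45239089: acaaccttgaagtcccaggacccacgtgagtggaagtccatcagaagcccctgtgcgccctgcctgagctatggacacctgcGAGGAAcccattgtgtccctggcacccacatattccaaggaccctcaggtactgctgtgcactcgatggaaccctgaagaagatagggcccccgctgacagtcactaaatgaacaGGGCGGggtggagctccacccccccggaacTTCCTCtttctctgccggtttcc
Cd300c, chr11:114960508-114960757: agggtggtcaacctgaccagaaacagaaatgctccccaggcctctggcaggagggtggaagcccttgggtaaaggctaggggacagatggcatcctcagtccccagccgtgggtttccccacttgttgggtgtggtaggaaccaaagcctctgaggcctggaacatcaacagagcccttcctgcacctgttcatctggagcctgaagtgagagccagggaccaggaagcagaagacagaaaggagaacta
Cd5, chr19:10738975-10739224: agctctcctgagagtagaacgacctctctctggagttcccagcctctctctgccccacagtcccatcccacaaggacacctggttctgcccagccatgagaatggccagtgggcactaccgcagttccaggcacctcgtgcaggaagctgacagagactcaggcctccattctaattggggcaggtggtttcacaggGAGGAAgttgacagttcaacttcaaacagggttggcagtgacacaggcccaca
Cd82, the first of 4 listed starts, chr2:93462951-93463200: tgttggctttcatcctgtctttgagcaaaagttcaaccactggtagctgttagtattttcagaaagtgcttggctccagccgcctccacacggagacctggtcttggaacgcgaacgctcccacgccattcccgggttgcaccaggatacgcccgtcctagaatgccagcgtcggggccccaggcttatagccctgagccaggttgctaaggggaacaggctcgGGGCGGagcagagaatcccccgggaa

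The promoter of Cd37 held 1 GC box and the flanked ETS core at 2 places. The core nearer to the start began 23 bases before it. That of Cd5 held 1 flanked ETS core, 53 bases before the start. The promoter of Cd82, picked among genes with a GC box, held 1 such box, 26 bases before the start. The window of Cd300c held none of these letters. Of the 61 measured genes, 46 had an entry, and the first listed start of each was read on both strands. The flanked ETS core was found in 21 of 46, or 45.7%, against 23.1% of 27025 promoters of all genes. It was present in 5 of 8 T and NK cell promoters, 2 of 3 B cell ones, 8 of 17 myeloid ones, 1 of 3 of antigen presentation and costimulation, 1 of 2 of leukocytes in general, 0 of 1 of vessels and stroma, and 4 of 12 broadly expressed ones. The GC box was found in 12 of 46, or 26.1%, against 32.9% of all promoters. It lay in 0 of 8 T and NK cell promoters, 0 of 3 B cell ones, 1 of 17 myeloid ones, 3 of 3 of antigen presentation and costimulation, 1 of 2 of leukocytes in general, 0 of 1 of vessels and stroma, and 7 of 12 broadly expressed ones. Differences between the roles were not tested. The letters TATAAA, the TATA box, were on either strand of 4 of 46 promoters, or 8.70%, against 13% of all. No 2 of these matches overlapped in the windows shown. The median log ratio was -0.04 over the 21 genes with the flanked ETS core and 0.02 over the 25 without it. For the GC box, the median was -0.19 over the 12 genes with one and 0.08 over the 34 without. These 2 groups differ in their roles. Within the broadly expressed role, the median was -0.17 over the 7 genes with a GC box and -0.14 over the 5 without. A match is a run of letters, and binding was not measured.

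Among T and NK cell antigens, an adhesion molecule and an inhibitor of receptor signals had the widest ratios. Cd2, which binds CD48 on other leukocytes and strengthens T cell contacts, had 0.82 and 1.16. Cd5, a scavenger-type receptor that dampens signals of the T cell receptor, had 0.68 and 1.26. These 2 were the genes of the role with at least 0.5 on both arrays, and both missed the threshold in limma, with an adjusted p of 0.0553 for Cd2 and 0.0711 for Cd5. The next gene below the 4 called ones was Cd2, whose 95% interval ran from 0.56 to 1.42.

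The chains that make up the receptor complex had means closer to 0 than Cd2 and Cd5, and most had different signs on the 2 arrays. Cd3e, a signalling chain of the complex, had 0.61 on array 1 and -0.27 on array 2. Its partner chain Cd3d had 0.40 and -0.06, likewise positive on array 1 only. Cd247, the zeta chain, was negative on both arrays at -0.50 and -0.16. The coreceptor Cd4, which marks helper T cells, had -0.29 and -0.02. Cd8a, a chain of the coreceptor of cytotoxic T cells, had 0.05 and -0.14, close to 0 on both arrays. Cd8b1, the other chain, had -0.45 and 0.64, so its arrays pointed in opposite directions. Adjusted p in limma ran from 0.261 for Cd247 to 0.872 for Cd8a among these 6. Signs were mixed in 4 of the 6, while 72.2% of all genes had the same sign on both arrays.

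The other T and NK cell antigens also had means closer to 0 than Cd2 and Cd5. The costimulatory receptor Cd27 had 0.07 and 0.77, and Cd28, which receives the second signal for T cell activation, had 0.33 and -0.20. Cd160, a receptor of NK cells and cytotoxic T cells, had 0.15 and -0.40, and Cd6, which binds the adhesion molecule CD166, had -0.42 and 0.14. Cd96, an NK and T cell receptor for nectin-like molecules, had 0.02 and 0.15. In all, 4 of the 13 measured genes were positive on both arrays, 2 were negative on both and 7 were mixed, with a median of 0.09. Of all genes, 33.9% were positive on both and 38.2% negative on both. Limma called 0 of 13 genes, and 2 had an unadjusted p of 0.05 or less, beside 27.5% of all genes.

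B cell antigens were few, and the chains of the B cell receptor lay on opposite sides. Cd79b had 1.27 and 0.56, positive on both arrays. Cd79a, with which it forms the signalling dimer of the receptor, had -0.24 and -0.34, negative on both. The 95% intervals in limma, from 0.35 to 1.47 for Cd79b and from -0.68 to 0.10 for Cd79a, did not overlap, the difference between the genes was not tested, and neither was called (adjusted p = 0.0907 for Cd79b and 0.272 for Cd79a). Cd22, an inhibitory receptor that binds sialic acid, had -0.03 and 0.02, and Cd72, another inhibitory receptor, had 0.52 and -0.48. The median of the 4 was 0.01, and limma called none (0 of 4). Of the 4, 1 had an unadjusted p of 0.05 or less, beside 27.5% of all genes.

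**Figure D2:**
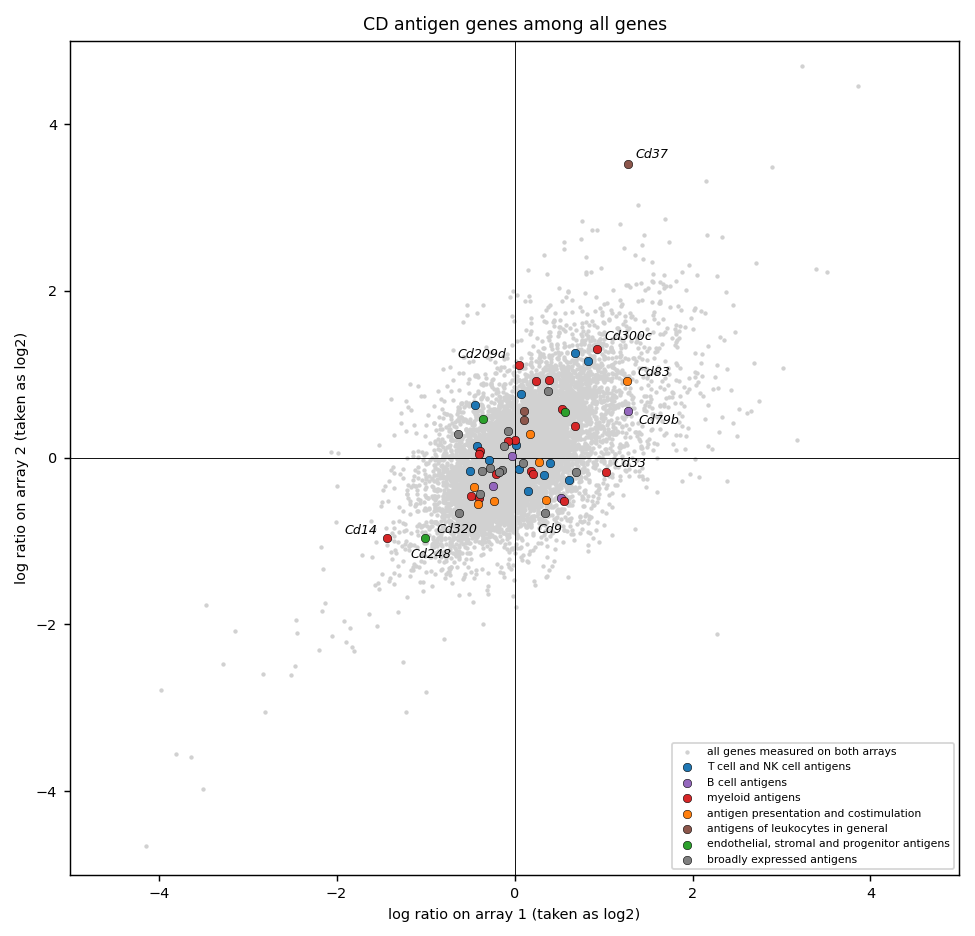
Log ratio on array 1 (horizontal axis) against that on array 2 (vertical axis), both taken as log2, for all 13506 genes in grey and the 61 CD antigen genes coloured by role. Cd37 stands apart at 1.28 and 3.53, Cd300c and Cd83 lie at the upper right, Cd14 and Cd248 at the lower left, and Cd33, Cd9 and Cd209d are examples of genes whose arrays differ.

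Genes of antigen presentation and costimulation held 1 called gene among 7 measured, beside 2.9% of all genes called. Cd83, a marker of mature dendritic cells that is also made by activated lymphocytes, had 1.26 and 0.92. Its mean of 1.09 ± 0.24 (SD, n = 2) is a 2.13-fold difference on a base of 2, and limma gave an adjusted p of 0.0483, just inside the threshold. Cd274, Cd40 and Cd276, which pass signals between T cells and other cells, lay on the other side. Cd274, the ligand PD-L1 of the inhibitory receptor PD-1, had -0.41 and -0.55. Cd40, a receptor through which T cells activate antigen-presenting cells, had -0.46 and -0.35. Cd276, the B7-family protein B7-H3 that many tumour cells carry, had -0.23 and -0.51.

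These 3 were negative on both arrays and not called, with an adjusted p in limma of 0.136 for Cd274, 0.171 for Cd40 and 0.213 for Cd276. Cd200, the ligand of the inhibitory CD200 receptors, had 0.35 and -0.51. Cd74, the invariant chain of MHC class II, had 0.17 and 0.28, and Cd1d2, a molecule related to those that present lipids, had 0.28 and -0.05. The median of the 7 genes was -0.08, and 3 of the 7 had an unadjusted p of 0.05 or less, beside 27.5% of all genes.

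Myeloid antigens formed the largest role, with 18 measured genes, and held called genes on both sides. Cd300c, of the CD300 family of paired activating and inhibitory receptors of myeloid cells, had 0.93 and 1.30. Its mean of 1.12 ± 0.26 (SD, n = 2) is a 2.17-fold difference on a base of 2 (limma adjusted p = 0.0475). Cd14, the coreceptor that hands bacterial lipopolysaccharide to the Toll-like receptor complex, had -1.43 and -0.96. Its mean of -1.20 ± 0.33 was the lowest of the 61 and is a 2.29-fold difference on a base of 2 (limma adjusted p = 0.0475). Cd68, a lysosomal glycoprotein used as a general macrophage marker, had -0.21 and -0.19, and Cd33, a sialic acid-binding receptor, had 1.03 and -0.18.

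Families of near relatives showed how far genes of 1 kind could differ. Relatives can share sequence, and whether a probe also reads a relative was not tested. These families were grouped after their values were seen. Of the CD300 receptors, Cd300a, an inhibitory member, had -0.49 and -0.46, on the side opposite to Cd300c, and Cd300e had 0.56 and -0.52. The CD209 genes are the mouse relatives of the human dendritic cell lectin DC-SIGN. Cd209c had 0.53 and 0.59, positive and close together, with an adjusted p of 0.107 in limma.

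Cd209a and Cd209d were positive on both arrays with a wide gap, at 0.24 and 0.92 and at 0.05 and 1.11. Cd209e had 0.19 and -0.16, and Cd209f -0.39 and 0.08. The median of these 5 lectins was 0.56 and limma called none (0 of 5). Of the 5, 2 had an unadjusted p of 0.05 or less, beside 27.5% of all genes. Of the CD200 receptors, which restrain myeloid cells or, in some members, activate them, Cd200r2 had 0.68 and 0.38 and Cd200r3 had 0.01 and 0.21.

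Scavenger receptors, their relatives and other genes of the myeloid list were mixed. Cd163, the receptor for haemoglobin bound to haptoglobin, had 0.39 and 0.93, with an adjusted p of 0.120 in limma. Cd5l, a protein secreted by tissue macrophages such as those of the liver, had -0.40 and 0.04. Cd163l1, a relative of Cd163, had 0.21 and -0.20, and whether macrophages express it was not checked. Cd180, a homologue of the Toll-like receptors, had -0.40 and -0.48, on the same side as Cd14, and Cd177, a neutrophil glycoprotein, had -0.07 and 0.20. Over the 18 genes, 7 were positive on both arrays, 4 were negative on both and 7 were mixed, with a median of 0.04. Of all genes, 33.9% were positive on both and 38.2% negative on both. Limma called 2 of 18, or 11.1%, beside 2.9% of all genes. An unadjusted p of 0.05 or less was found for 8 of 18, or 44.4%, beside 27.5% of all genes.

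Of the antigens of vessels, stroma and progenitors, Cd248 and Cd34 were close between the arrays and Cd93 was not. Cd248, the endosialin of tumour pericytes and fibroblasts, had -1.01 and -0.96. Its mean of -0.99 ± 0.03 (SD, n = 2) is a 1.98-fold difference on a base of 2 (limma adjusted p = 0.0475). Cd34, a sialomucin of vascular endothelium and blood progenitors, lay on the opposite side at 0.57 and 0.55, with an adjusted p of 0.106 in limma. Cd93, a lectin-like receptor of endothelium and myeloid cells, had -0.36 and 0.46. The median gap between the arrays was 0.05 over these 3 genes, 0.35 over the 61 and 0.25 over all genes.

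Of 13 broadly expressed antigens measured, 6 were negative on both arrays, 1 was positive on both and 6 were mixed, and the median was -0.16, against -0.02 over all genes. Of all genes, 38.2% were negative on both arrays and 33.9% positive on both. Limma called 0 of 13 genes, and 3 had an unadjusted p of 0.05 or less, beside 27.5% of all genes. Cd320, the receptor that takes up transcobalamin with its vitamin cargo, had -0.63 and -0.66, with an adjusted p of 0.0879 in limma. The 1 gene positive on both arrays was Cd82, a tetraspanin studied as a suppressor of metastasis, at 0.38 and 0.80 (limma adjusted p = 0.124).

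The other tetraspanins of this role organise receptors and integrins in the membrane, and Cd151 and Cd63 were negative on both arrays while Cd81 and Cd9 were mixed. Cd151, a partner of laminin-binding integrins, had -0.39 and -0.44, and Cd63, a protein of late endosomes and exosomes, had -0.14 and -0.15. Cd81, which belongs to the coreceptor complex of B cells and to many other membranes, had 0.10 and -0.06, and Cd9 had 0.34 and -0.67. With Cd37, the 6 measured tetraspanins among the 61 genes ranged from -0.42 to 2.40, with a median of -0.06. Limma called none (0 of 6), while 3 had an unadjusted p of 0.05 or less, beside 27.5% of all genes.

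Genes that protect cells from phagocytosis and complement, and the remaining broadly expressed antigens, were not called. Cd47, which tells macrophages not to engulf a cell, had -0.37 and -0.16. Cd59a, which blocks the membrane attack complex, had -0.64 and 0.28, and Cd46, a complement regulator, had -0.07 and 0.32. Whether mouse Cd46 is broadly expressed was not checked. The sialomucin Cd164 had -0.17 and -0.18, Cd99l2, a relative of the adhesion molecule CD99, -0.28 and -0.13, and Cd109, which binds transforming growth factor beta, -0.12 and 0.14. Cd164l2 had 0.69 and -0.17. Adjusted p in limma among these 7 was lowest for Cd47, at 0.319.

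**Figure D3:**
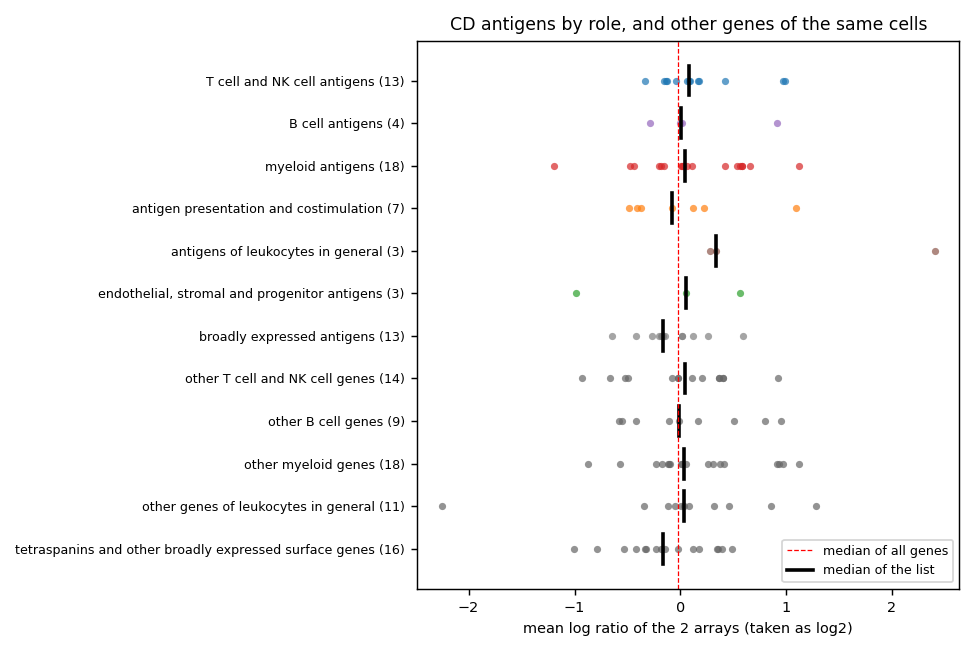
Mean log ratio of the 2 arrays (taken as log2) of each gene in the 7 roles of CD antigens and in 5 lists of other genes of the same kinds of cell, with a black bar at the median of each list, the number of measured genes in brackets and a dashed line at the median of all genes, -0.02. List medians run from -0.16 for both broadly expressed lists to 0.33 for the 3 antigens of leukocytes in general.

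Further CD antigens had a value on 1 array only and were left out of the reported fit. On array 1 these were Cd44, a receptor for hyaluronan, at 1.32, Cd53, a leukocyte tetraspanin, at 1.05, and Cd24a, a small mucin-like antigen, at 0.22. On array 2 they were Cd7, an antigen of T and NK cells, at 2.32, Cd1d1, which presents lipids to NKT cells, at 1.06, Cd207, the langerin of Langerhans cells, at 0.75, and Cd200r1, the main receptor of CD200, at 0.75. Cd70, the ligand of CD27, had -0.07 and Cd86, a ligand of CD28, -0.32. None of these 9 values has a second array to set beside it. Another 11 genes had a value on neither array: Cd200r4, Cd226, Cd244a, Cd300c2, Cd302, Cd36, Cd3g, Cd48, Cd55, Cd55b and Cd69.

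Pairs of ligand and receptor could therefore be read only in part. Cd200 was mixed, and its main receptor Cd200r1 had 1 value. Cd200r2 and Cd200r3, of the same receptor family, were positive on both arrays, and whether they bind CD200 was not tested. Of the pair of Cd27 and Cd70, the receptor was positive on both arrays and the ligand had 1 value. The ligands of Cd28 and of Cd2 among these genes, Cd86 and Cd48, had 1 and 0 values.

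Other genes of the same cells also lay on both sides of 0. Over these lists, the share at an unadjusted p of 0.05 or less ran from 18.8% to 44.4%, beside 27.5% of all genes. Of 14 measured T and NK cell genes outside the CD names, limma called none (0), while 5 had an unadjusted p of 0.05 or less, and the median was 0.05. Il7r, the receptor for interleukin 7, had 0.85 and 1.00, Bcl11b, a transcription factor of T cells, had -1.04 and -0.82, and Eomes, a transcription factor of cytotoxic cells, had -0.48 and -0.56. Of 9 B cell genes, limma called none (0), while 4 had an unadjusted p of 0.05 or less, and the median was -0.01. Ms4a1, which encodes CD20, had 0.56 and 0.46 and the adaptor Blnk 1.55 and 0.34, against -0.50 and -0.67 for the transcription factor Ebf1.

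Of 18 other myeloid genes, limma called none (0), while 5 had an unadjusted p of 0.05 or less, and the median was 0.03. Fcgr1, a receptor for antibodies, had 0.75 and 1.48 and Mpo, the peroxidase of neutrophil granules, 1.19 and 0.75, against -0.69 and -1.06 for S100a8, a calcium-binding protein of neutrophils and monocytes. Among 11 genes of leukocytes in general Cytip was called, an adaptor that regulates adhesion, at -2.20 and -2.31 (limma adjusted p = 0.0235). Of all genes, 2.9% were called. Itgb2, the CD18 chain of the leukocyte integrins, had 0.36 and 2.21 and Coro1a, an actin-binding protein, 0.46 and 1.26. The median of these 11 genes was 0.03, with 4 at an unadjusted p of 0.05 or less. Of 16 other tetraspanins and broadly expressed surface genes, 8 lay below 0 and 4 above it on both arrays, beside 38.2% and 33.9% of all genes. The median of these 16 was -0.16 and limma called none (0), while 3 had an unadjusted p of 0.05 or less. Tspan9 had -0.77 and -1.24 and the integrin chain Itgav -1.08 and -0.50, against 0.34 and 0.63 for Tfrc, the transferrin receptor.

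Agreement between the arrays differed among the roles, and the differences were not tested. Across the 61 genes, which are not independent replicates and share both arrays, Pearson's r between the arrays was 0.556 and Spearman's rho 0.408, against 0.615 and 0.582 across all genes. The SD across the 61 genes was 0.54 on array 1 and 0.70 on array 2. Across the 13 T and NK cell antigens r was 0.327, across the 18 myeloid antigens 0.549 and across the 13 broadly expressed antigens 0.188. In the lists of other genes of these kinds, r was 0.689 for T and NK cells and 0.543 for myeloid cells. It was 0.522 for tetraspanins and other broadly expressed surface genes.

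The 4 calls lay at the edge of the threshold, with adjusted p from 0.0475 to 0.0483 in limma. Of 9 other ways of fitting the same ratios, 3 kept the call of Cd300c, 2 that of Cd83, and 1 each that of Cd14 and Cd248. The count of called CD antigen genes was 2 after median centring, 1 after scaling to the same spread and 0 in 6 other fits. Their means were never below 0.96 in absolute size in these fits, and their signs did not change. Only centring, scaling and quantile normalization could move a mean. The other fits used the same means, as each of these genes had 1 probe. With genes that had a value on only 1 array let into the fit, limma also called Cd2, at an adjusted p of 0.0429, and Cd7, whose 1 value has no spread of its own. That fit called 6.94% of all genes, against 2.9% in the reported one.

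**Figure D4:**
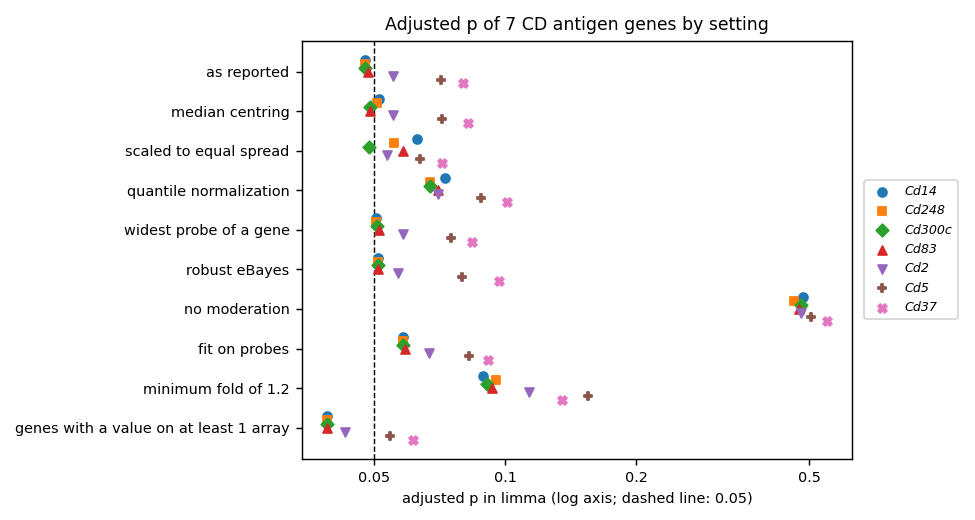
Adjusted p in limma (horizontal log axis) of 7 CD antigen genes under the reported fit and 9 other settings (rows), with a dashed line at 0.05. The 4 called genes sit just left of the line in the reported fit, at 0.0475 to 0.0483, and right of it in most other settings, while Cd5 and Cd37 stay right of it in every setting drawn.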

How the data were processed

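Each of 2 two-colour arrays held RNA of liver metastases and of primary tumours of Colon26 cells and counted as 1 biological replicate, per the labels. RNA was amplified as amino-allyl aRNA, per the labels' protocols. The deposited values are log ratios of both channels, taken as log2. How their base, numerator, background correction and normalization were set is not given in the sources used here. A base of 10 would mean ratios beyond a scanner's usual range, while the values leave a natural log possible. With no intensities in the table, the precision rests on the number of arrays and on a prior variance that limma takes from all genes. That prior counts for 4.06 degrees of freedom, beside 1 residual degree of freedom per gene.

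The table held 23473 probes, 18837 of them with both values. GEO's platform annotation named 16631 probes, and 3947 of these names were updated by a unique synonym in RefSeq's gene table (GRCm38.p6), which renamed 7 CD antigen genes, such as Tnfrsf7, now Cd27. Probes of a gene were averaged. Every one of the 13506 genes was fitted against 0 with limma 3.58.1 (lmFit and eBayes, R version 4.3.3), with Benjamini-Hochberg adjustment over all genes. The code was also run on ratios simulated from limma's own variance model, which cannot show whether that model holds for these data. Values per array are given for all 61 genes, whereas the rule for full statistics took the called genes, those at least 0.5 from 0 on both arrays with 1 sign, and the chains and coreceptors of the T and B cell receptors. From each list of other genes, those called and up to 3 that lay farthest from 0 on the array nearer to it are named. The genes, roles and lists were chosen with earlier results of these data known, and no list was tested as a set. Whether each gene is expressed in mouse tissues as its role says was not checked. Alternatives were other centring, scaling, quantile normalization, choice of probe, moderation, unit, minimum fold, filter and single arrays. Figures were drawn with matplotlib 3.10.9.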

Additional observations from a re-analysis of the deposited data

How the results depend on the processing

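The count of 4 called CD antigen genes was lower in most other fits. It was 2 after median centring, 1 after scaling both arrays to the same spread, and 0 with quantile normalization, with the widest probe of each gene, with robust moderation, with no moderation, on probes in place of genes, and with a minimum fold of 1.2. Where limma gave 0, the number at an unadjusted p of 0.05 or less was 9 with no moderation, 10 with a minimum fold of 1.2 and 20 in the other 4 fits, where 10.7%, 13.8% and 27% to 27.6% of all genes or probes had such a p. The share of all genes called moved too, to 2.68% after centring, 1.81% after scaling, 0.0296% after quantile normalization and 0% with no moderation, where 1 residual degree of freedom is left per gene. With genes of 1 value let in, the count was 6, in a fit that called 6.94% of all genes, against 2.9% in the reported one. The number of CD antigen genes at least 1 log2 unit from 0 on both arrays was 2 after scaling, against 1 otherwise, and 5 to 6 on a single array. The median of the 61 genes stayed between 0.02 and 0.05 under the other scalings and was between -0.05 and 0.05 on single arrays, so its sign is not settled. Of 162 values of the 18 genes picked for full statistics, over 9 settings, 132 kept their sign and their side of the threshold, 29 lost a call and 1 gained one. No sign changed among these 162, but only centring, scaling and quantile normalization could change one. The other settings used the same means, as each of these genes had 1 probe. The adjusted p of Cd14 in limma ranged from 0.039 to 0.484. Each array already holds both tissues, so testing the ratios against 0 keeps their pairing on an array. No further pairing was possible with 1 group of ratios.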
